A study of Bos taurus with 8 samples.

Results

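The miR-2284 and miR-2285 family of cattle was examined in small RNA libraries of serum and of serum exosomes. Its members were chosen by name alone, as every bovine miRNA called miR-2284 or miR-2285 with any letter and arm suffix. The rule found 51 of the 534 miRNAs listed, and 44 of these were detected with 1 read or more. MiR-2284x and miR-2284y (miR-2284x/y) had the same value in every library, and so did miR-2284aa and miR-2284z (miR-2284aa/z). MiR-2284r, miR-2285i and miR-2285x also shared 1 value, but only through 1 read in 1 library. Each such group was counted as 1 measurement, which gave 40 measurements with reads. The 7 members without a read were miR-2284c, miR-2284p, miR-2284q, miR-2284t-5p, miR-2284u, miR-2285d and miR-2285s.

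The blood came from 4 healthy lactating Holstein cows that had received no treatment named in the sources used here. Each cow gave 1 library of serum RNA and 1 of the RNA of exosomes precipitated out of that serum. Serum RNA was extracted with a Norgen kit and exosomal RNA with Invitrogen kits and a larger serum volume, so an effect of the extraction and one of exosomes cannot be told apart. A sample type therefore has 4 libraries, and each library carries the number of its cow.

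MiRNAs are short RNAs that guide Argonaute proteins to partly complementary messenger RNAs and repress them, with pairing led by the seed near the miRNA 5′ end. The miR-2284 and miR-2285 names were given to a large set of related miRNAs that was found by sequencing in cattle, and the family has many gene copies dispersed over the ruminant genome. In blood, miRNAs circulate within vesicles such as exosomes and also outside vesicles, bound to proteins. The question of the comparison was how the miRNAs of whole serum and of its exosomes differ.

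The values are RPM, the reads of a miRNA over all miRNA reads of the same library, scaled to 1e6. The miRNA reads numbered 264769 to 590162 per serum library and 60682 to 157710 per exosome library, so that 1 read equalled 1.69 to 3.78 RPM for sera and 6.34 to 16.5 RPM for exosomes. A count of 0 allows up to 3 reads, which corresponds to 5.08 to 11.3 RPM for sera and to 19.0 to 49.4 RPM for exosomes. Intervals and floors cover counting error only, since PCR copies are not independent molecules. Red cell miRNAs, 6 of 6 with reads in every library, summed to between 228570 and 325240 RPM for sera and between 268760 and 490830 RPM in exosomes. The 6 platelet and leukocyte miRNAs, all with reads in every library, ranged in sum from 30479 to 39736 RPM among sera and from 31767 to 46159 RPM among exosomes. The liver miRNAs miR-122 and miR-192 ranged from 31518 to 57479 RPM among sera and from 22081 to 57216 RPM among exosomes, with miR-122 at 0 in at least 1 library. Both libraries of cow 1 stood apart in muscle miRNAs, which summed to 23097 RPM in its serum and 26301 RPM in its exosomes, against 164 to 342 RPM in the other 6 libraries. Of the 6 muscle miRNAs, miR-1, miR-133b, miR-206 and miR-208b were at 0 in at least 1 library. The part of these lists in the family's values was not tested, and results that rest on cow 1 are also given without it.

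The family took a small and similar share of the miRNA reads in both sample types. Summed over its measurements, it reached 2088, 1868, 2814 and 1953 RPM across sera 1 to 4. In the exosomes of the same cows the sum was 2308, 1988, 3027 and 2035 RPM. Cow 3 was highest in both sample types, and the ranges of sera and exosomes overlapped. The sera averaged 2181 ± 432 RPM (SD, n = 4) and the exosomes 2339 ± 479 RPM (SD, n = 4), or 0.218% and 0.234% of the miRNA reads. The library total behind RPM counts every name, while this sum counts a shared value once. With every name in the sum as well, it was 3771 ± 723 RPM for sera and 4043 ± 858 RPM for exosomes. The exosome library was higher in 4 of 4 cows, by 219, 121, 212 and 81.8 RPM in cows 1 to 4. The mean difference within cows was 159 ± 68.0 RPM (SD, n = 4). The exosome sums rest on 140 to 321 reads, and the 95% counting intervals of serum and exosomes overlapped in each cow. Without cow 1 the means were 2212 ± 524 and 2350 ± 586 RPM (SD, n = 3). Without both libraries of cow 3 the exosomes were 141 RPM higher on average. Because RPM is a share, the sum also depends on the most abundant miRNAs, and after the 10 most abundant were taken out of the denominator it was 4996 ± 641 RPM for sera (SD, n = 4) and 6712 ± 1353 RPM for exosomes. By name, the miR-2284 measurements made up most of the sum, with 1793 ± 327 RPM for sera and 1975 ± 424 RPM for exosomes. The miR-2285 measurements summed to 388 ± 113 and 365 ± 103 RPM. As a comparison, the other cattle-discovered miRNAs, which carry the next higher numbers, have 58 measurements. They came to 794 ± 512 RPM for sera and 944 ± 487 RPM for exosomes. For them the exosome library was likewise higher in 4 of 4 cows, by 191, 187, 109 and 109 RPM in cows 1 to 4. These miRNAs also stood highest in cow 3, at 1561 RPM in serum against 501 to 585 RPM in the other sera and at 1670 RPM in exosomes against 640 to 772 RPM.

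**Figure D1:**
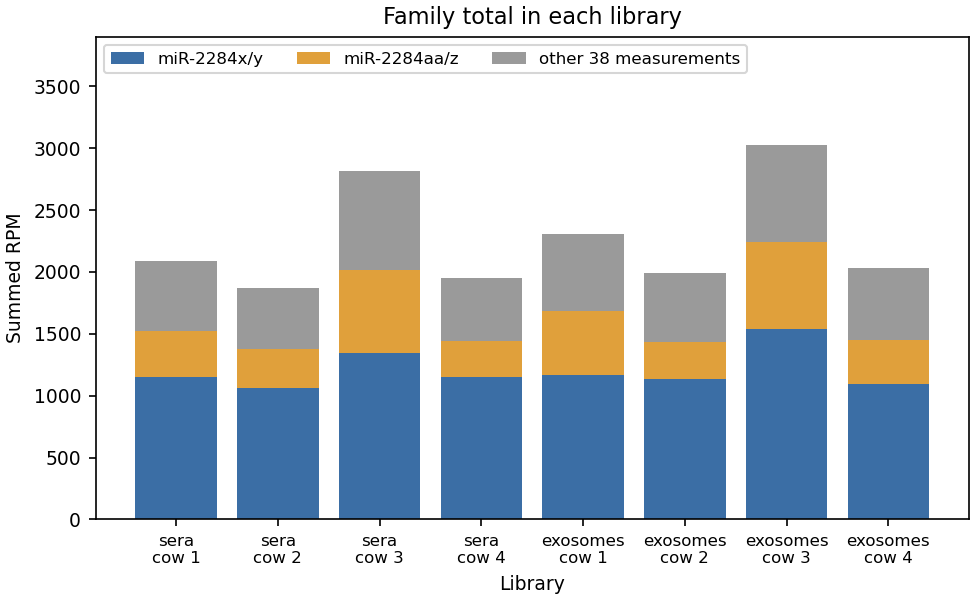
Stacked bars show the summed RPM of the family in each of the 8 libraries, divided into miR-2284x/y, miR-2284aa/z and the other 38 measurements. The bars run from 1868 to 3027 RPM, with cow 3 highest in both sera and exosomes and the leading measurement taking 47.6% to 59.0% of each bar.

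A single measurement led the family in every library. MiR-2284x/y held 55.2%, 57.1%, 47.6% and 59.0% of the family sum across sera 1 to 4. In exosomes its shares were 50.7%, 57.3%, 51.0% and 53.9%. The shares overlapped between the sample types, with means of 54.7% ± 4.98 in sera and 53.2% ± 3.06 in exosomes (SD, n = 4). MiR-2284aa/z followed with 14.7% to 24.0% of the sum in sera and 14.9% to 23.2% in exosomes. The other 38 measurements together held 26.3% to 28.3% in sera and 25.8% to 28.6% in exosomes, a range narrower than that of either leading measurement. When every name is counted, so that both names of a shared value enter the sum, the leading value was 63.2% ± 5.42 of it in sera and 61.7% ± 3.83 in exosomes (SD, n = 4).

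The gene copies behind these names were looked up by symbol in the RefSeq annotation of the assembly ARS-UCD2.0, which is not the assembly used by the authors. It lists 191 genes of the family, and 50 of the 51 members matched at least 1 gene of their name, the exception being miR-2284d. The matched members have 84 genes in all, of which 57 lie within the interval of a protein-coding gene, and 10 members have more than 1 gene. The leading measurement, miR-2284x/y, stands for 8 genes. The miR-2284x gene lies within TIAM1, which encodes an activator of the Rac GTPase, and miR-2284y genes lie within PAX3, STK32A, SELENOI and RBBP8. MiR-2284aa/z stands for 11 genes, including copies within AP3B1, SOS1, C2CD3, PTPRB, PLEKHA5, MCTP1 and PIK3R5. A high gene number did not go with high reads in each case, since miR-2285n has 7 genes and 2 reads in all libraries, whereas miR-2284w has 1 gene and 201 reads. In 5 pairs, genes of different members overlap each other, among them miR-2285y with a miR-2284z copy, miR-2284h with a miR-2285o copy, miR-2285u with a miR-2284y copy and miR-2285q with miR-2285z. The table gives no strand, so reads of overlapping members are reported as uncertain in their assignment.

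Sera and exosomes were then compared for each miRNA with limma on log2(RPM + 1), without the cow in the model. A positive log2 fold change (log2 FC) is higher in sera. For this comparison, intervals and FDR values are those of this unpaired fit unless another is named. A miRNA was called with a false discovery rate (FDR) under 0.05 and a log2 FC beyond 1 in either direction. Of 365 miRNAs tested, 16 were called, or 4.38%. The family had 31 measurements (33 rows) past the filter on low values, and 0 of them were called. The 365 include identical rows separately, and with identical rows counted once 15 miRNAs were called. At an unadjusted p under 0.05 there were 2 of the 31, against 94 of all 365. On the reads recovered from the values, edgeR called 14 of the 365 miRNAs (3.84%) and 0 family measurements, with 55 of the 365 and 2 of the 31 at an unadjusted p under 0.05. The median log2 FC was 0.04 over the family measurements and 0.57 over all miRNAs tested, and 17 family measurements were positive and 14 negative. With edgeR and its TMM scaling the medians were -0.44 and 0.12, with 11 family measurements positive and 20 negative. The direction of the family's median thus depends on the fit. These fits differ both in scaling and in their handling of low counts, and the part of each was not tested. Under both fits the median of the family lay below that of all miRNAs tested. The 44 other cattle-discovered miRNAs that were tested had a median of 0.50 with limma and -0.33 with edgeR, and 0 of them were called. With the cow as a replicate block, limma called 35 miRNAs, or 9.59%, and 1 family measurement, miR-2285b. Without cow 1, limma called 16 miRNAs and 0 of the family.

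Of the family, 12 measurements are described one by one, namely those with at least 10 reads in some library together with miR-2285b and miR-2284k.

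**Figure D2:**
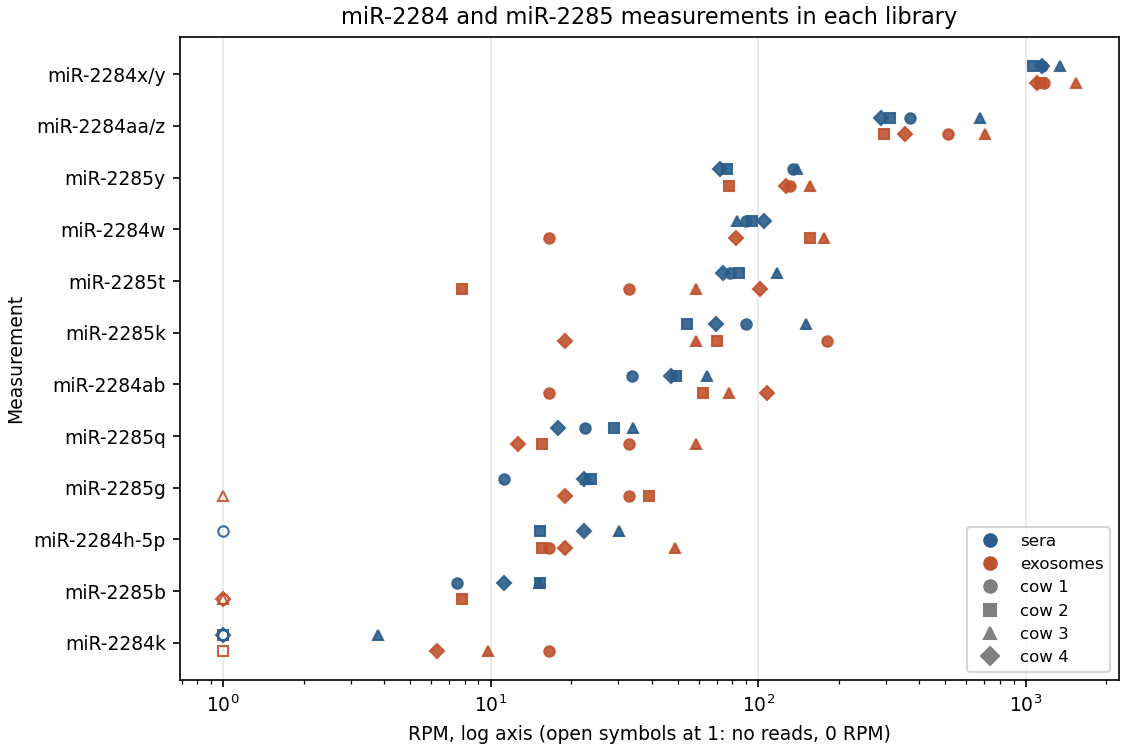
Each symbol is the RPM, on a log axis, of 1 of 12 measurements in 1 of 8 libraries, with colour for the sample type, shape for the cow and open symbols for libraries without a read. The values of miR-2284x/y stay between 1066 and 1542 RPM in all libraries, while miR-2284w, miR-2285t, miR-2285k and miR-2284ab spread more widely among exosomes than among sera.

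MiR-2284x/y was the most abundant member, at rank 74 of all miRNAs by mean RPM in sera and rank 65 in exosomes. It was at 1153, 1066, 1341 and 1153 RPM across sera 1 to 4. In exosomes it was at 1170, 1138, 1542 and 1097 RPM. The libraries of cow 3 were the highest of each type, the highest value was only 1.26-fold the lowest in sera and 1.41-fold in exosomes, and the sample types overlapped. The means of 1178 ± 116 and 1237 ± 206 RPM (SD, n = 4) differed by a log2 FC of -0.06, with a 95% interval of -0.48 to 0.36 (FDR = 0.880). The interval lies within the limits of -1 and 1, as it did for miR-2284aa/z and for no other of the 12 measurements described here. The values rest on 1806 reads in sera and 548 in exosomes.

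MiR-2284aa/z was at rank 105 in sera and rank 90 in exosomes. Its values across sera 1 to 4 were 371, 310, 676 and 287 RPM. The exosomes of these cows held 511, 296, 703 and 355 RPM. Both libraries of cow 3 were above all other libraries, and the sample types overlapped. The sera averaged 411 ± 180 RPM (SD, n = 4) and the exosomes 466 ± 182 RPM, with a log2 FC of -0.19 and an interval of -0.92 to 0.54 (FDR = 0.767). Only this measurement and miR-2284x/y had at least 10 reads in every library.

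**Figure D3:**
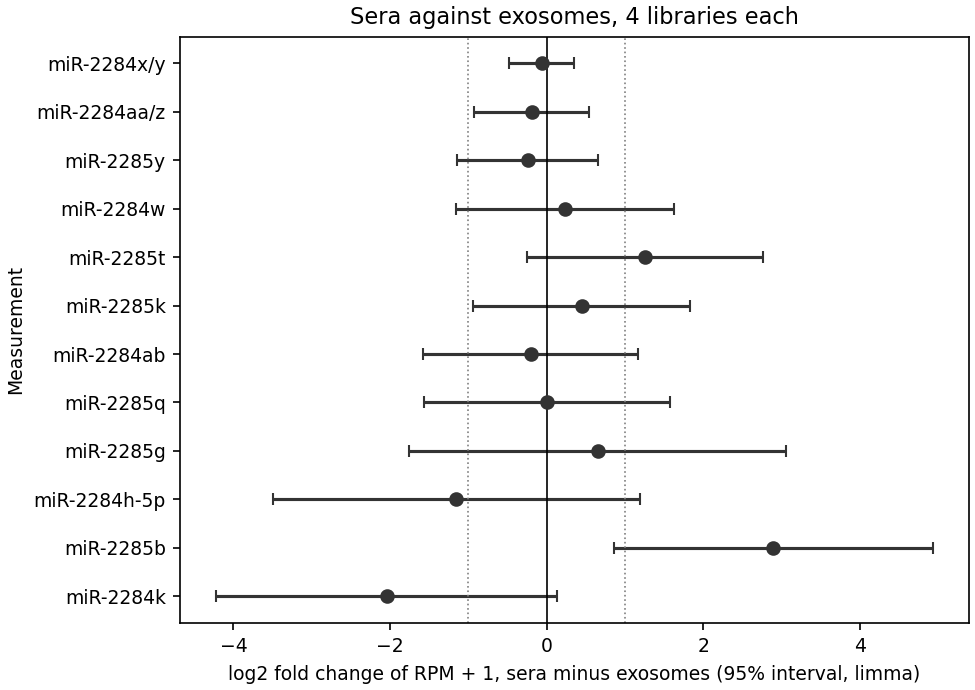
Points are the log2 FC of RPM + 1 between 4 sera and 4 exosome libraries for the 12 measurements, positive where sera are higher, with 95% intervals from limma. The interval is narrowest for miR-2284x/y, from -0.48 to 0.36, and widest for miR-2285g, from -1.75 to 3.06. That of miR-2285b, from 0.86 to 4.94, does not include 0, but this member passed the filter only through sera. With 1 exosome read, its log2 FC depends on the pseudocount, at 5.32 with 0.1 and 0.93 with 10.

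The next 5 measurements had means from 48.5 to 106 RPM for sera and from 50.2 to 123 RPM for exosomes. MiR-2285y, whose gene lies within PLEKHA5 and overlaps a miR-2284z copy, was at 134.7, 76.3, 139.7 and 71.8 RPM across sera 1 to 4. Its exosomes were at 131.8, 78.0, 156.2 and 126.8 RPM. These values overlapped almost fully, with the highest in cow 3 for both sample types and a log2 FC of -0.24 (interval -1.15 to 0.66, FDR = 0.767). MiR-2284w, whose gene lies within DOCK11, an activator of the Cdc42 GTPase, was nearly even among sera with 89.8, 94.9, 83.1 and 105 RPM. Among exosomes it was at 16.5, 156, 176 and 82.4 RPM, and the lowest of these stands for 1 read. The ratio of the highest to the lowest library was 1.27 in sera and 10.6 in exosomes. Its log2 FC was 0.24 (interval -1.16 to 1.63, FDR = 0.857) and turned to -0.48 without cow 1, whose exosome library held that single read, and to -0.51 with edgeR.

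MiR-2285t, with a gene within FCGR2B, which encodes the inhibitory Fc gamma receptor of B cells and myeloid cells, was at 78.6, 84.7, 117 and 74.0 RPM in sera. Its exosomes held 33.0, 7.8, 58.6 and 102 RPM, from 2, 1, 6 and 16 reads. Sera were higher in cows 1, 2 and 3 and exosomes in cow 4. The log2 FC of 1.26 had an interval of -0.25 to 2.77 and was not called (FDR = 0.276, and 0.0685 with a replicate block for the cow). It fell to 0.57 without the exosome library of cow 2, which held 1 read, and to 0.54 with edgeR and 0.42 with DESeq2. MiR-2285k, which has 5 genes, of which 3 are within LRRC8D, PIP4K2A and DLG2, was at 89.8, 54.2, 151 and 69.5 RPM in sera. In exosomes it was at 181, 70.2, 58.6 and 19.0 RPM. Cow 3 was highest in sera and cow 1 in exosomes, and the log2 FC of 0.45 spanned -0.94 to 1.84 (FDR = 0.729). MiR-2284ab, with a gene within AFF1, a subunit of a complex that promotes elongation by RNA polymerase II, was at 33.7, 49.1, 64.2 and 47.1 RPM in sera and at 16.5, 62.4, 78.1 and 108 RPM in exosomes. Its exosome values enclosed its sera values on both sides, and the log2 FC of -0.20 spanned -1.58 to 1.17 (FDR = 0.880).

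The next 3 measurements had means of 17.0 to 25.8 RPM for sera and 22.8 to 30.0 RPM for exosomes. MiR-2285q, which lies within SREK1, a gene of a splicing regulator, and overlaps miR-2285z, was at 22.5, 28.8, 34.0 and 17.9 RPM in sera and at 33.0, 15.6, 58.6 and 12.7 RPM in exosomes. Cow 3 held the highest value of both types, and the log2 FC was 0.0019 with an interval of -1.57 to 1.57. MiR-2285g, with 3 genes within AQR, NLRC5 and TENM1, was at 11.2, 23.7, 22.7 and 22.4 RPM in sera and at 33.0, 39.0, 0 and 19.0 RPM in exosomes. The absence of a read from the exosomes of cow 3 allows up to 29.3 RPM there, and the log2 FC of 0.65 had an interval of -1.75 to 3.06. MiR-2284h-5p had no read in the serum of cow 1 and 15.3, 30.2 and 22.4 RPM in the other sera, against 16.5, 15.6, 48.8 and 19.0 RPM in exosomes. Its log2 FC of -1.15 (interval -3.49 to 1.19, FDR = 0.566) shrank to -0.16 without cow 1.

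MiR-2285b and miR-2284k were also reported on by the study for the contrast of these same libraries, so their values are no independent evidence of a direction. MiR-2285b was at 7.5, 15.3, 15.1 and 11.2 RPM across sera 1 to 4, from 20 reads in all. In exosomes it had a single read, which made 7.8 RPM in cow 2, and none in cows 1, 3 and 4. Sera were higher in 4 of 4 cows, and the serum of cow 1 was the only one below the value of exosomes 2, so the groups overlapped. However, 0 reads in exosomes 1, 3 and 4 allow up to 49.4, 29.3 and 19.0 RPM, above the serum values of these cows. In cow 2 the counting intervals overlapped, so the order of serum and exosomes is not resolved within any single cow. At the rate of the pooled sera, 5.73 reads would be expected in the pooled exosomes, against 1 found. The log2 FC was 2.90 with an interval of 0.86 to 4.94, and it was not called (FDR = 0.0882). Limma called it with a replicate block for the cow (FDR = 0.0387) and without the exosome library of cow 2 (log2 FC 3.68, FDR = 0.0232), but it was not called by edgeR with that block (log2 FC 2.05, FDR = 0.428), by edgeR without it (FDR = 0.429) or by DESeq2 (FDR = 0.535). MiR-2285b passed the filter on low values only through sera. The size of its log2 FC depended on the pseudocount, at 5.32 with 0.1 and 0.93 with 10. Of the 2 genes of this name, 1 lies within FAR1, which encodes a fatty acyl-CoA reductase.

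MiR-2284k rested on 4 reads. It had 1 read in sera, which made 3.8 RPM in cow 3, and 1 read each in the exosomes of cows 1, 3 and 4, at 16.5, 9.8 and 6.3 RPM. The log2 FC of -2.04 spanned -4.22 to 0.14 (FDR = 0.220) and was -1.35 without cow 1. All of its values were at or below the floor of 3 reads.

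The 28 measurements that remain are close to the limit of detection. Together they had 123 reads in sera and 50 in exosomes, where 35.2 would be expected at the sera rate. They are what was left after members with at least 10 reads in a library were taken out, a number that deeper serum libraries reach more readily. The choice thus favours few serum reads, and the difference from 35.2 is no result. MiR-2285aa led them with 24 reads, followed by miR-2284f with 17, miR-2284e with 15, and miR-2284ac and miR-2284j with 13 each. MiR-2284e and miR-2284f had equal reads in 6 of 8 libraries and differed by at most 1 read, so they may not be separate measurements. Between 5 and 7 reads were found for miR-2285ac, miR-2285l, miR-2285o, miR-2285p, miR-2284l, miR-2284m, miR-2285z, miR-2284b, miR-2284d and miR-2285u. The others, with at most 4 reads, were miR-2285j, miR-2284n, miR-2284o, miR-2285af, miR-2285h, miR-2285r, miR-2284a, miR-2284v, miR-2285a, miR-2285n, miR-2285ab, miR-2285v and the group of miR-2284r, miR-2285i and miR-2285x. MiR-2285u is singled out after its values were seen, because it alone of the 31 tested measurements had groups that did not overlap. It was at 7.5, 1.7, 3.8 and 2.2 RPM across sera 1 to 4 and had no read in exosomes, but the sera values rest on 5 reads and 0 reads in exosomes allow up to 19.0 to 49.4 RPM. Of all 365 miRNAs tested, 14.2% had groups that did not overlap. The log2 FC of miR-2285u was 2.12 with an interval of 0.59 to 3.64 (FDR = 0.0935). However, miR-2285u passed the filter on low values only through sera, and 1.43 exosome reads would be expected at the sera rate. Its fit rests on exosome zeros below detection and on the pseudocount, so it is no evidence of a difference.

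**Figure D4:**
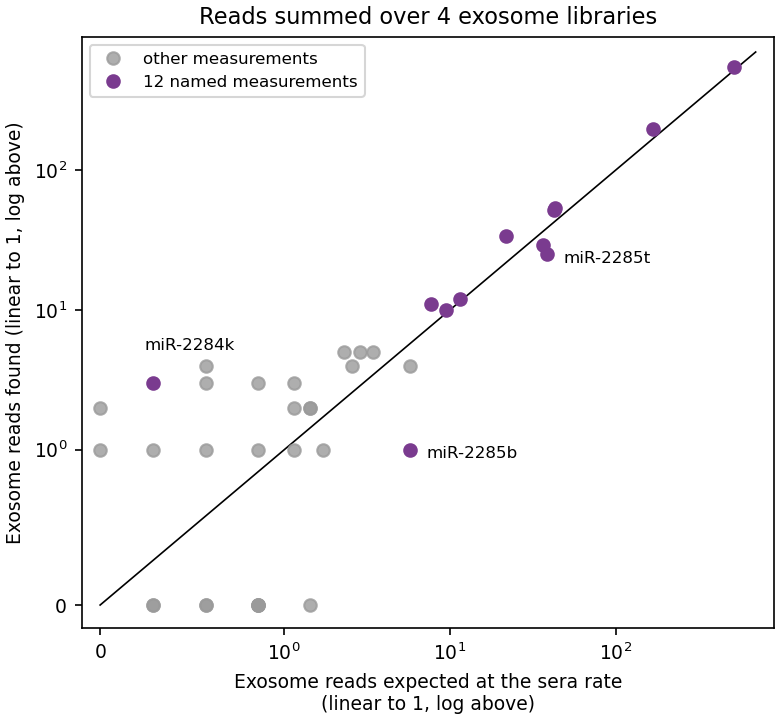
Each of the 40 measurements is placed by the exosome reads expected from its share of the pooled sera reads (x axis) and the exosome reads found (y axis), both linear up to 1 and logarithmic above, with the line of equality. The abundant measurements lie near the line, miR-2285b lies below it with 1 read against 5.73, and the grey points have fewer than 10 reads in each library.

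More members were detected in sera than in exosomes, and this difference was not kept at equal depth. At least 1 read was found for 24, 30, 29 and 25 measurements across sera 1 to 4 and for 17, 20, 21 and 21 across exosomes 1 to 4. The lowest serum library exceeded the highest exosome library, with means of 27.0 ± 2.94 and 19.8 ± 1.89 (SD, n = 4). The same held over all miRNAs, with identical rows counted once, at 306 to 342 detected in sera and 252 to 297 in exosomes. The family made up 8.22% ± 0.669 of those detected in sera and 7.30% ± 0.473 in exosomes (SD, n = 4). The smallest library had a depth of 60682 miRNA reads. At that depth the expected numbers for the family were 13.5, 12.6, 17.0 and 13.4 in sera and 17.0, 14.5, 16.8 and 14.0 in exosomes. Exosomes were then higher in 3 of 4 cows, with means of 14.1 ± 1.97 in sera and 15.6 ± 1.55 in exosomes (SD, n = 4). Over all libraries, 38 measurements had reads in sera and 31 in exosomes. The 9 measurements found only in sera were miR-2285u, miR-2284n, miR-2284o, miR-2284a, miR-2284v, miR-2285h, miR-2285r, miR-2285v and the group of miR-2284r. They had 23 reads there, for which 6.59 exosome reads would be expected. Because they were picked for having no exosome read, this shortfall is set by the choice and is no result. Over all 40 measurements, exosomes had 1026 reads where 938 would be expected. MiR-2285n and miR-2285ab had reads only in exosomes, with 2 reads and 1 read. At these read numbers a member that was not found in a sample type was below detection and cannot be called absent.

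The cows were compared with the F test of the cow term in a limma model with the sample type. Since both libraries of a cow came from 1 blood sample, this test compares blood samples and not lasting traits of the animals. Of the 365 miRNAs, 93 were called with an FDR under 0.05, or 25.5%, and 90 were called with identical rows counted once. In the family, 1 of 31 measurements was called, miR-2284aa/z, with 3 at an unadjusted p under 0.05 against 119 of all 365, and among the 44 other cattle-discovered miRNAs 2 were called. Where all libraries held 10 reads or more of a miRNA, 76 of 128 were called, and 2 family measurements were covered to that depth. Of these, miR-2284aa/z was called and miR-2284x/y was not (FDR = 0.364).

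MiR-2284aa/z averaged 690 RPM over the libraries of cow 3 and 355 RPM over those of the other cows, a ratio of 1.94. The lower value of cow 3, 676 RPM in serum, was above the highest value of any other cow, 511 RPM in the exosomes of cow 1. The FDR of the cow term was 0.000209, and it was between 2.72e-05 and 0.0293 when each library was left out in turn. EdgeR with TMM gave 0.00618 and DESeq2 gave 0.00877. Without both libraries of cow 1, which carried the muscle miRNAs, the FDR was 6.46e-06, and without cow 3 it was 0.356, so that the call rests on cow 3. The summed red cell, platelet and leukocyte, and muscle miRNAs of cow 3 lay within the range of the other cows in both sample types. Its liver miRNAs, at 31518 RPM in serum and 22081 RPM in exosomes, were the lowest of each type, and the other cattle-discovered miRNAs were highest in cow 3 as given above. The part of either in this result was not tested.

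**Figure D5:**
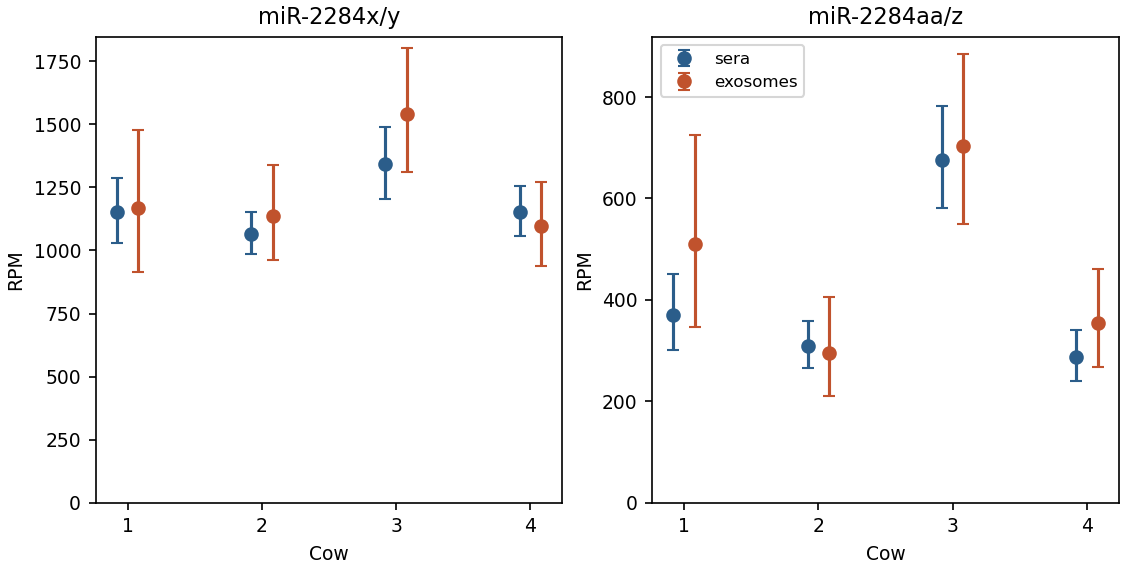
RPM of the leading measurements is shown for each cow, with serum and exosome values side by side and exact 95% counting intervals. For miR-2284aa/z both libraries of cow 3 lie above all others, and for miR-2284x/y cow 3 is also highest at 1341 and 1542 RPM, with intervals that overlap those of cows 1 and 4 in sera and of cows 1 and 2 in exosomes.

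Other members followed the cows less regularly. The same cow was highest in both sample types for 7 of the 12 measurements. It was cow 3 for miR-2284x/y, miR-2284aa/z, miR-2285y, miR-2285q and miR-2284h-5p, and cow 2 for miR-2285g and miR-2285b. The highest exosome value rests on 1 read for miR-2285b, 5 reads each for miR-2284h-5p and miR-2285g, and 6 reads for miR-2285q. The same share over all miRNAs was not counted, so this number cannot be called particular to the family. For miR-2284w, miR-2285t, miR-2285k, miR-2284ab and miR-2284k different cows were highest in sera and in exosomes. MiR-2284k had 1 read in each library that held it, so its order among exosomes is that of library depth alone. The ratio of the leading measurement to miR-2284aa/z moved accordingly. It was 3.11, 3.44, 1.98 and 4.02 across sera 1 to 4 and 2.29, 3.84, 2.19 and 3.09 across exosomes 1 to 4, lowest in cow 3 for both types. MiR-2284w had the next lowest FDR of the cow term, at 0.0771, with 1 read in the exosomes of cow 1. Leaving out 1 library at a time moved it between 0.000186, without the serum of cow 1, and 0.885, without the exosomes of cow 1, and edgeR gave 0.536. MiR-2285k followed at 0.138, which moved between 0.00778, without the serum of cow 1, and 0.676, without the exosomes of cow 4, with 0.283 by edgeR and 0.430 by DESeq2. Neither was called with all libraries.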

How the data were processed

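Serum and exosome small RNA was sequenced from 4 cows as Illumina TruSeq libraries, 1 per cow and sample type. Low-quality reads were removed by the authors with CASAVA 1.8 (submitters' processing notes), and trimmed reads were aligned to miRBase release 21 with sRNAbench. The authors deposited RPM values, 1 table per library, scaled to all miRNA reads of a library, so that a rise of 1 abundant miRNA lowers all others. Whole reads were recovered for 100% of the values, within 0.06 RPM. Reads were assigned without stated handling of near-identical members, so shared reads may be counted under several names. Rows with identical values were counted once in the family, while the main fits kept every row.

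The unit called for limma 3.58.1 (trend, R 4.3.3) on log2(RPM + 1), fitted over all miRNAs with more than 1 RPM in at least 2 libraries of a sample type, with Benjamini-Hochberg adjustment over all of them. The pseudocount of 1 RPM is less than 1 read in every library. The log2 FC of low miRNAs with 0 reads in some libraries therefore depends on it and can be too large or too small. EdgeR 4.0.16 (quasi-likelihood) and DESeq2 1.42.0 were run on recovered reads, and both limma and edgeR also with a replicate block for the cow. The pairing follows from the study's methods, in which both libraries of a cow came from the same serum, and the same-cow correlation of deviations was 0.740 to 0.860 over 128 miRNAs. Equal depth used the hypergeometric expectation. Intervals of counts are exact 95% intervals. Python 3.11.15, SciPy 1.17.1 and pandas 2.3.3 were used. The fits were also run on simulated data with planted changes, but without a general correlation between the libraries of a cow. The outcome of that run is not given here and serves as no support for the results. Measurements with at least 10 reads in a library, any past a threshold, and miR-2285b and miR-2284k are described singly. The members, lists and tests were chosen with earlier results of these data known. Sequences, coordinates and seed groups were not used here.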

Additional observations from a re-analysis of the deposited data

Results flagged for a closer look

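In 5 of 36 groups of 4 libraries, the highest or lowest library stood apart by Dixon's test at the 95% level. Chance alone sets about 1 in 20 groups apart, and libraries of few reads have coarse steps. MiR-2284x/y was highest in the exosomes of cow 3, at 1542 RPM. MiR-2284h-5p was also highest in the exosomes of cow 3, at 48.8 RPM. MiR-2285g was lowest in the serum of cow 1, at 11.2 RPM. MiR-2285b was at 7.8 RPM in the exosomes of cow 2 and at 0 in the other exosomes. MiR-2284k was at 3.8 RPM in the serum of cow 3 and at 0 in the other sera, in each case from 1 read. Where all other values of a group are 0, the test flags the remaining library whatever its value. The flags of miR-2285b and miR-2284k therefore say nothing beyond that 1 read.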

How the results depend on the processing

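Of the 365 miRNAs, 16 were called between sera and exosomes. The count was 35 with limma and 26 with edgeR under the cow as a replicate block, 12 to 23 without each library in turn, and 9, 9 and 5 without both libraries of cow 2, 3 or 4. The family had 0 calls, but 1 with a pseudocount of 0.1 (miR-2285u), 1 with limma under the replicate block (miR-2285b), and 0 to 1 without each library in turn. MiR-2285u and miR-2285b passed the filter on low values only through sera. Between cows, 93 miRNAs were called, 60 to 123 without each library and 58 without cow 4. The 1 family call became 2 without the filter on low values (miR-2285af was added), 1 to 3 without each library, and 0 without cow 3. The family sum was lower in sera, at a difference of -159 RPM, and the difference was instead -1716 without the 10 most abundant miRNAs, -505 with TMM scaling, -272 with every row counted and -370 to 70.5 without each library in turn, where the positive value leaves the exosomes of cow 3 out and its serum in. The difference of 7.25 detected measurements was 5.25 at a minimum of 3 reads, -1.43 at equal depth and 6.25 to 8.25 without each library. The difference of 1.53 percentage points in the leading share was 0.10 to 3.89 without each library. Members that were not called changed the sign of their log2 FC in some fits. MiR-2284w was at -0.51 with edgeR and TMM, -0.25 with library totals, -0.63 with DESeq2, -0.47 with edgeR under the replicate block, -0.48 without cow 1 and -0.49 to 0.62 without each library. MiR-2285q was, in the same order, at -0.33, -0.13, -0.46 and -0.29, and at -0.037 with a pseudocount of 10, -0.28 without cow 2, -0.15 without cow 4 and -0.31 to 0.40 without each library. MiR-2285g was at -0.36, -0.13, -0.49 and -0.31, at -0.65 without cow 3 and -0.57 to 1.20 without each library. MiR-2285k was at -0.087 with DESeq2, -0.0070 without cow 4 and -0.10 to 0.96 without each library. MiR-2284ab was at 0.12 without cow 4 and -0.76 to 0.12 without each library. MiR-2284x/y ranged from -0.13 to 0.049 and miR-2284aa/z from -0.46 to 0.034 without each library. The causes were not tested. Leaving out a cow was chosen after seeing the data. Counting 1 measurement per seed group was not run. With a single library left for a cow, its spread is assumed to be that of the others. Depth limits most members, as 24 of 40 measurements had at most 10 reads in total.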
